A study of Homo sapiens with 2 samples.

Results

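The genes described here are 43 glycolytic enzymes, glucose and lactate transporters, and regulators and targets of the hypoxia-inducible factor HIF. They were followed in MDA-MB-231, a human cell line in long use as a model of triple-negative breast cancer. Per the labels, 1 culture was transfected with control siRNA and 1 with siRNA against KMO (siKMO), both for 48 h, and RNA of each was hybridised to 1 Affymetrix U133 Plus 2.0 array. KMO is the kynurenine 3-monooxygenase of tryptophan breakdown, and the study's title links it to pluripotency genes and beta-catenin. The growth medium was the same for both cultures per the labels, and no oxygen level or hypoxic treatment is named there. The array names contain the letters shLUC and shK421, as hairpin vectors often do, whereas every other label says siRNA. A gene was taken where the platform annotation assigns a probe set to it alone. This gave 102 probe sets, 3 of them array controls of GAPDH that were used for no value below, for 41 of the 43 genes, out of 54675 probe sets and 19775 named genes, and the carbonic anhydrase CA9 and the lactate exporter SLC16A3 were not analysed here. There was no replicate of either culture, so every value below compares 1 culture with another, and the siRNA and the culture dish cannot be told apart.

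Glycolysis splits glucose into pyruvate and gains ATP without oxygen, and lactate dehydrogenase then turns pyruvate into lactate. HIF is a dimer of an alpha subunit (HIF1A or EPAS1) and ARNT. When oxygen is present, prolyl hydroxylases of the EGLN family mark the alpha subunit, and VHL has it degraded, so HIF activity is set largely by protein stability. Active HIF raises transcription of most glycolytic enzymes and of genes for angiogenesis, pH control, mitophagy and collagen modification. Many tumour cells run glycolysis at a high rate in the presence of oxygen as well.

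Levels below are log2 values from robust multi-array averaging, a difference is siKMO minus control, and -1 is a 2-fold lower level. Where a gene has several probe sets, the strongest by the mean of both arrays stands for it. It counts as measured where that mean is at least 6, a round minimum chosen to lie above background. Among 18 markers of other tissues, 17 fell short of this minimum, the exception being MBP with a control level of 8.63 and a difference of -0.63. KMO, the targeted gene, had a control level of 2.95 and a siKMO level of 2.92 with the strongest of its 3 probe sets, so its level checks neither label. The 3′ minus 5′ level of the actin control was 0.39 in the control and 0.33 in the siKMO array. Of the members, 39 were measured. EGLN3 lay just under the minimum with a mean of 5.9999, ALDOC just over it with a mean of 6.20, and VHL at 5.63 on both arrays was under it too.

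Most of these genes were lower in the siKMO culture, and none of the measured members was higher by 1.5-fold or more. Of 39 measured members, 33 were lower and 6 higher, while 44.1% of all 8997 measured genes were lower. Lower by at least 2-fold were 5 members (ALDOC, VEGFA, MXI1, SLC2A3 and NDRG1), against 1.39% of all measured genes, and 0 members were higher by 2-fold, against 0.856%. ALDOC passed only by a siKMO level under the minimum, and with levels under 6 taken as 6 there were 4. At 1.5-fold, 15 were lower, against 5.41% of all measured genes, and 0 higher, against 5.19%. The median difference of the members was -0.23 and that of all measured genes was 0.040. The central 95% of all measured genes ran from -0.82 to 0.74. Below it lay 10 members, namely the 5 above with ENO2, BNIP3L, HK2, BNIP3 and PFKFB4, and above it lay 0. With levels under 6 taken as 6 for the members only and the range of all genes left unchanged, ALDOC at -0.80 was inside and 9 lay below.

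**Figure D1:**
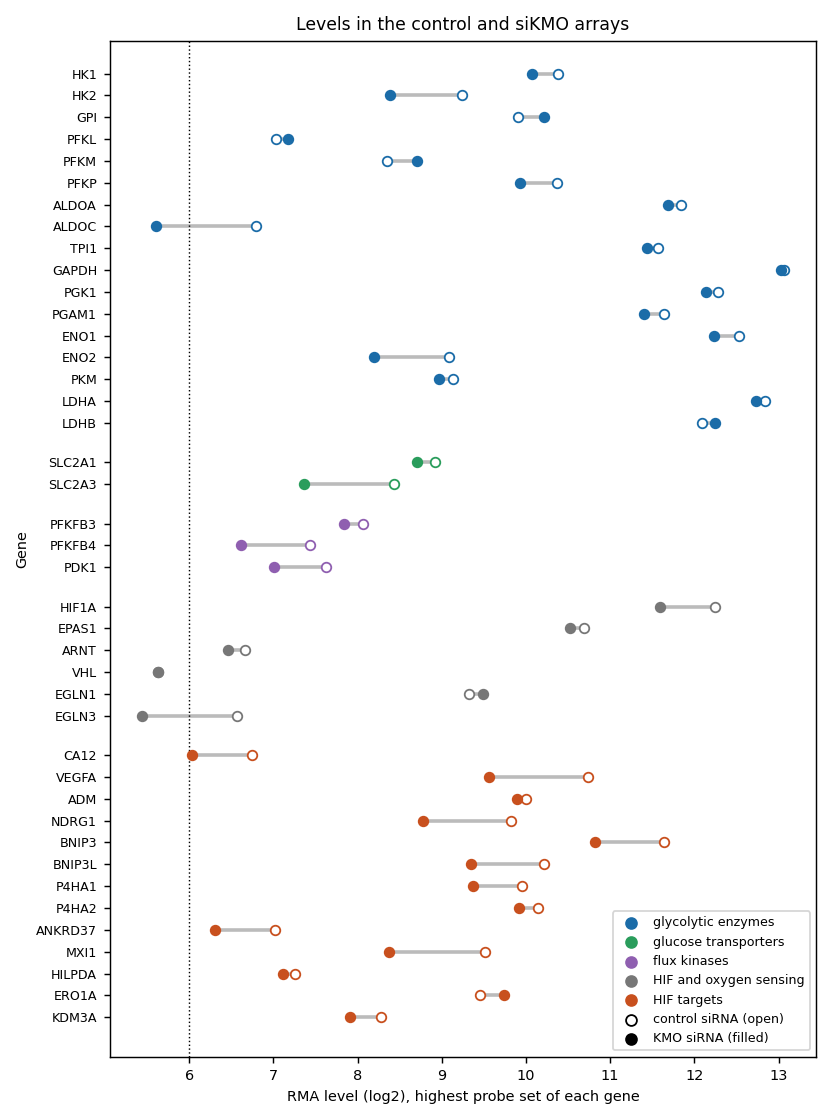
RMA level (log2, x axis) of each gene in the control array (open circle) and the siKMO array (filled circle), 1 array each, coloured by role, with the level minimum of 6 dotted. Filled circles lie left of open ones for most genes, with long bars for ALDOC, SLC2A3, VEGFA, MXI1 and NDRG1 and short ones for GAPDH, LDHA and PGK1.

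The glycolytic enzymes were mostly lower, by amounts that varied with the probe sets used. All 17 were measured, 13 were lower and 4 higher (44.1% of all measured genes were lower), and 1, ALDOC, was lower by 2-fold (1.39% of all). The median difference was -0.16, but it was -0.31 among the 7 enzymes with levels from 8 to 11 and -0.43 among the 7 left without probe sets whose names end in _x_at or _s_at. In pathway order, hexokinase, which traps glucose in the cell as its phosphate, is encoded here by HK1 and HK2. HK1 stood at 10.38 in the control and 10.07 in the siKMO array, a difference of -0.31. HK2, the hexokinase of fast-growing and insulin-responsive tissues, stood at 9.24 and 8.39, a 1.81-fold lower level. The isomerase GPI, the next enzyme, went the other way from 9.91 to 10.21, a difference of 0.30.

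Phosphofructokinase commits sugar to glycolysis and is built from 3 subunit types, which did not share a direction. The platelet type PFKP was lower (10.36 in control, 9.93 in siKMO, a difference of -0.43). The muscle type PFKM was higher, from 8.35 to 8.71, a difference of 0.36. That was the highest value among the members by the strongest probe set of each. The liver type PFKL differed by 0.14 and, with its other probe set, by 0.21.

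Aldolase cuts fructose bisphosphate into triose phosphates. ALDOA, the common form, stood at 11.85 in control and 11.69 in siKMO, and its 3 probe sets ran from -0.19 to -0.14. ALDOC, the form typical of brain, stood at 6.80 in control and 5.61 in siKMO, a difference of -1.19. Its siKMO level was under 6, so the fold is given as at least 1.74-fold lower (a difference of -0.80), its rank among the members is not settled, and it rests on 1 probe set.

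The later steps of the pathway showed small differences in the abundant enzymes. The triose phosphate isomerase TPI1 differed by -0.14. GAPDH, the dehydrogenase often taken as a constant reference, differed by -0.041, with 13.07 in control and 13.03 in siKMO. Phosphoglycerate kinase PGK1 stood at 12.28 and 12.13, a difference of -0.14, and all 6 of its probe sets were lower, 4 of them by -0.18 to -0.14. Its weakest probe set stood at 6.46 and 5.88, a difference of -0.46 with the siKMO level taken as 6. The mutase PGAM1 differed by -0.23.

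Enolase makes phosphoenolpyruvate. ENO1, the common form, stood at 12.53 in control and 12.24 in siKMO, and its 3 measured probe sets ran narrowly from -0.29 to -0.25. ENO2, the form of neurons that HIF also induces, stood at 9.09 and 8.19, a 1.86-fold lower level from 1 probe set. Pyruvate kinase PKM, which yields pyruvate and ATP, differed by -0.16 (9.13 and 8.97), and its other probe set by -0.43 with the siKMO level taken as 6. LDHA, the lactate dehydrogenase subunit favoured in glycolytic cells, differed by -0.11 (12.84 and 12.73). LDHB, the subunit of oxidative tissues, was higher with both probe sets, by 0.16 each. Near-identical processed copies exist for GAPDH, PGK1, LDHA and several other enzymes, and probes cannot always separate them.

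Enzymes that share a step were set against each other within the same pair of arrays. The difference of HK2 was lower than that of HK1 by -0.54, that of ENO2 lower than that of ENO1 by -0.60, and that of PFKP lower than those of PFKM and PFKL by -0.79 and -0.57. For ALDOC against ALDOA the gap was -1.03, or -0.64 with the ALDOC level taken as 6. LDHA and LDHB lay apart by -0.27. As a yardstick within single genes, the 2 highest probe sets of one gene differed by a median of 0.10 over 3777 genes. The 95th percentile was 0.46, and it was 0.52 over the 18 members with 2 such probe sets. The hexokinase, phosphofructokinase, aldolase and enolase gaps were above both percentiles and the lactate dehydrogenase gap below both. This yardstick holds no variation between cultures, and it does not show how often any 2 different genes lie as far apart. Levels differed within pairs too. ALDOA and ENO1 had mean levels above 11, where the median absolute difference of all genes was 0.12, against 0.21 from 8 to 11 and 0.23 from 6 to 8.

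Promoters of the enzymes were read from RefSeq for the short core to which HIF binds. Windows are shown for ALDOC, ENO2, ENO1 and PGK1, which have 1 window each. Of these, only ENO2 and ENO1 share a step. Each window of 300 bases, on GRCh38.p14, runs from 250 bases before to 50 bases after the gene's start. Capitals mark each ACGTG or GCGTG on either strand, the core of the hypoxia response element. Where CACGTG appears, the core is read on both strands and overlaps the E-box, a site of MYC and other helix-loop-helix factors. The set shows ALDOC and ENO2, which were among the enzymes with the lower values, beside ENO1 and PGK1, which differed by -0.29 and -0.14. The ALDOC window is chr17:28576846-28577145 on the minus strand, ENO2 chr12:6914330-6914629 on the plus strand, ENO1 chr1:8878637-8878936 on the minus strand and PGK1 chrX:78103998-78104297 on the plus strand.
ALDOC: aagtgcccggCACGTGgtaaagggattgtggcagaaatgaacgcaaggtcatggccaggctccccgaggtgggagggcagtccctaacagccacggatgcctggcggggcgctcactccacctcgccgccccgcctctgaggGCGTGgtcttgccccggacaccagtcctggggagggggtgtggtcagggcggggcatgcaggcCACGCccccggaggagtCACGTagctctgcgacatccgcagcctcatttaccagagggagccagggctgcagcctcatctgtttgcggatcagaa
ENO2: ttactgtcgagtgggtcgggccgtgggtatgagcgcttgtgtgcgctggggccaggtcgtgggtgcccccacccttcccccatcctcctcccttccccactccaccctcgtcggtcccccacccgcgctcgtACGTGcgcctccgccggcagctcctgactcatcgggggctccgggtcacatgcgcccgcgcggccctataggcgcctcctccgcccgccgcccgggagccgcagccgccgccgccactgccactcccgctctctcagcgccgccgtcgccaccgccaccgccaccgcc
ENO1: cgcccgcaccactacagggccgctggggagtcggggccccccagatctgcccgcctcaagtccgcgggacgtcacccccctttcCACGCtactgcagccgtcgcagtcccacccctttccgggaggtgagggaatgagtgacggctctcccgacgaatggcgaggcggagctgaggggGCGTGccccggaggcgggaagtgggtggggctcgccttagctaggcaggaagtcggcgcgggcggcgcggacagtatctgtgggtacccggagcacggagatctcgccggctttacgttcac
PGK1: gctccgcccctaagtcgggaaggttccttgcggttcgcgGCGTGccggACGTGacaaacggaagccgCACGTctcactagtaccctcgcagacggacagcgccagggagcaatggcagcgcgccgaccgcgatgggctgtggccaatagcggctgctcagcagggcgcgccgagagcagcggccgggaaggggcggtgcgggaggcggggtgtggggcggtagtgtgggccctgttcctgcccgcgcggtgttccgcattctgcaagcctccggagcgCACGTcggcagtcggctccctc
ALDOC holds 5 matches, including 1 CACGTG, ENO2 holds 1, ENO1 holds 2 and PGK1 holds 4. Their differences were -0.80 for ALDOC with the siKMO level taken as 6, -0.90 for ENO2, -0.29 for ENO1 and -0.14 for PGK1. The genes shown were chosen, and a link between matches and differences was not tested. Of 37 windows of the enzymes, counting every start site, 62.2% held a match, against 48.4% of all 35116 windows of the same length. Counted by gene, 94.1% of the 17 enzymes held a match in any of their windows, against 52.4% of all genes. A gene with more windows has more chances of a match. The shares over all windows and genes were not matched for base composition. HIF is known to raise most of these enzymes, so cores in their promoters say nothing about this experiment. CACGTG was in 13.5% of the enzyme windows and 7.26% of all. A match is a string of letters and does not show binding.

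Glucose entry and the kinases that steer its flux were lower in all 5 measured genes, while 44.1% of all measured genes were lower. SLC2A3, a high-affinity glucose transporter (GLUT3), stood at 8.43 in control and 7.36 in siKMO, a 2.11-fold lower level. A further probe set stood at 8.46 and 6.88, a difference of -1.58, and the third at 7.58 and 5.99, also -1.58 with the siKMO level taken as 6. SLC2A14 is a close copy of SLC2A3, so these probes may read RNA of either gene. The common transporter SLC2A1 (GLUT1) differed by only -0.22 (8.92 and 8.71), and the gap between both transporters was -0.86.

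PFKFB3 and PFKFB4 make fructose 2,6-bisphosphate, the strongest activator of phosphofructokinase. PFKFB4 stood at 7.44 in control and 6.62 in siKMO, a difference of -0.82, while PFKFB3 differed by -0.23 (8.06 and 7.83). PDK1, which inhibits pyruvate dehydrogenase and so keeps pyruvate from becoming acetyl-CoA, stood at 7.62 and 7.01, a difference of -0.61. Each of these 3 genes rests on 1 probe set above the minimum.

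Among the subunits and sensors of HIF, the RNA of HIF1A was lower and the other measured genes ran from -0.20 to 0.17. HIF1A stood at 12.24 in control and 11.59 in siKMO, a difference of -0.65 or a 1.57-fold lower level from 1 probe set. Of all measured genes, 4.29% had a lower difference. EPAS1 (HIF-2 alpha) stood at 10.69 and 10.52, a difference of -0.17, so the gap between both alpha subunits was -0.48. The partner ARNT differed by -0.20 (6.66 and 6.46).

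EGLN1, the main oxygen sensor and itself a HIF target, was 9.32 in control and 9.49 in siKMO. Its difference of 0.17 had no settled direction, as its probe sets ran from -0.11 to 0.17. EGLN3, a hydroxylase that hypoxia also induces, stood at 6.56 and 5.44. With the siKMO level taken as 6 its difference was -0.56, and its mean under 6 keeps it out of the counts. The array reads RNA, and HIF protein was not measured.

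HIF targets outside glycolysis were lower, with a lower median than the enzymes in the probe sets used here. Of 13 measured, 12 were lower and 1 higher, 8 were lower by 1.5-fold and 3 by 2-fold, and the median difference was -0.72. Of all measured genes, 44.1% were lower, 5.41% by 1.5-fold and 1.39% by 2-fold. VEGFA, the angiogenic growth factor, stood at 10.74 in control and 9.56 in siKMO, a 2.27-fold lower level. Its 4 probe sets ran from -1.26 to -1.07, a narrow band. MXI1, a partner of MAX that opposes MYC, stood at 9.52 and 8.37, a 2.22-fold lower level. NDRG1, a stress-induced protein tied to hypoxia and differentiation, stood at 9.82 and 8.78, a 2.06-fold lower level, and like MXI1 it rests on 1 probe set.

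The mitophagy receptors, which bring mitochondria to autophagosomes, were lower together. BNIP3 stood at 11.64 in control and 10.81 in siKMO and its paralog BNIP3L at 10.22 and 9.35, differences of -0.83 and -0.87 that lay 0.038 apart. The other probe sets gave -0.78 for BNIP3 and -0.56 for BNIP3L. ANKRD37, a small ankyrin protein widely used as a hypoxia marker, stood at 7.02 and 6.30, a difference of -0.72. CA12, a membrane carbonic anhydrase that manages acid outside the cell, stood at 6.75 and 6.03, also a difference of -0.72, and at -0.67 with its other measured probe set.

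Collagen and chromatin enzymes among the targets varied. P4HA1, a prolyl hydroxylase subunit that stabilises collagen, stood at 9.96 in control and 9.37 in siKMO, a difference of -0.59. Its relative P4HA2 differed by -0.22 with one probe set and 0.36 with another, so its direction was not settled. The histone demethylase KDM3A differed by -0.37 (8.28 and 7.90).

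Some classical targets differed little or without a settled direction between arrays. ADM, the vasodilator peptide adrenomedullin, differed by -0.11 (10.00 and 9.89). HILPDA, which holds fat in lipid droplets, differed by -0.14 with one probe set and 0.028 with the other. ERO1A, the oxidase that forms disulfide bonds in the endoplasmic reticulum, differed by 0.28, with probe sets from -0.13 to 0.28. The HIF targets therefore did not share a size, with a range from -1.18 for VEGFA to 0.28 for ERO1A by the strongest probe set of each.

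**Figure D2:**
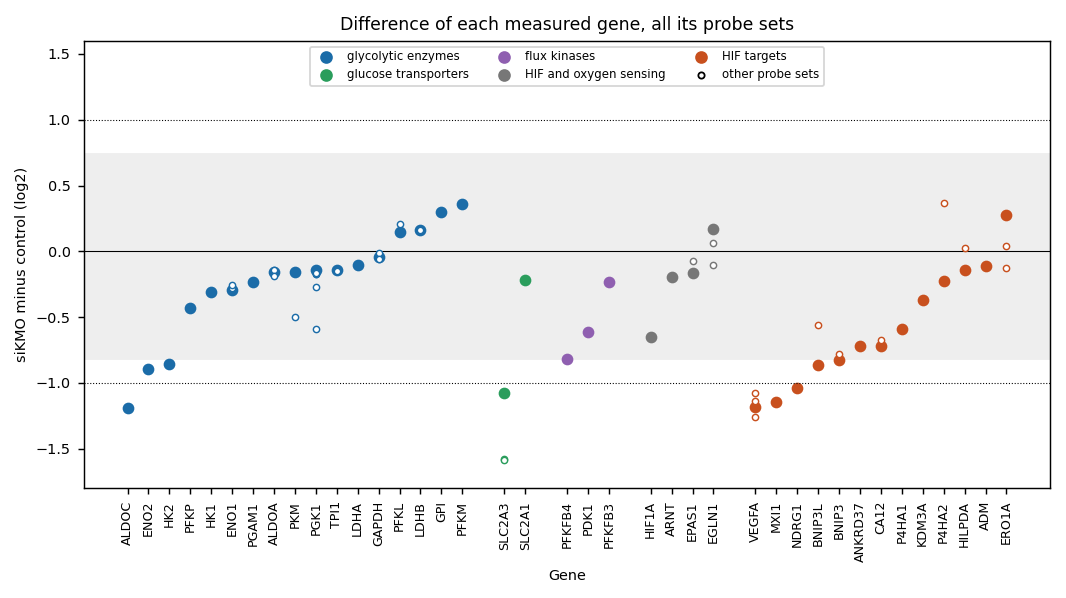
Difference of siKMO minus control (log2, y axis) for each measured gene, ordered within its role. Large points are the probe set used for the gene, small open points its other measured probe sets, and the grey band is the central 95% of all 8997 measured genes (-0.82 to 0.74). All 10 genes outside the band lie below it.

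BNIP3 and ANKRD37 are shown by their promoters as the targets whose RefSeq windows hold an E-box form of the core, with capitals as above. The BNIP3 window is chr10:131981874-131982173 on the minus strand and the ANKRD37 window chr4:185396591-185396890 on the plus strand, both on GRCh38.p14.
BNIP3: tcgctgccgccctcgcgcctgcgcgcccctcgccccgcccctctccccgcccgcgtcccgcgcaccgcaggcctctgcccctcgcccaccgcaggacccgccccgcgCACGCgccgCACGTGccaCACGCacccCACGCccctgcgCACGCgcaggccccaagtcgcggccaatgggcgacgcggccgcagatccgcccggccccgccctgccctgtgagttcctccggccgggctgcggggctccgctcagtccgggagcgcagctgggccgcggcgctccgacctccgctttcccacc
ANKRD37: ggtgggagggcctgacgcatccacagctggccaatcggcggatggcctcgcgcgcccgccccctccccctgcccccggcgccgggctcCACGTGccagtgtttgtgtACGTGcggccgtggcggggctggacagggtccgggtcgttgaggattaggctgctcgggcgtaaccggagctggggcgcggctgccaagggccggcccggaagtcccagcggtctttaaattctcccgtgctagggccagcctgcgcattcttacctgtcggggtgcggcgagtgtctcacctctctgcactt
BNIP3 holds 6 matches and ANKRD37 holds 3, each with 1 CACGTG. RefSeq windows were at hand for 10 of the 14 listed HIF targets, CA9 included and VEGFA, NDRG1, BNIP3L and HILPDA not. Of their 13 windows, 84.6% held a match to ACGTG or GCGTG and 15.4% a CACGTG, beside 48.4% and 7.26% of all windows. Counted by gene, 90% of the 10 held a match in any window, beside 52.4% of all genes, again not matched for base composition. These genes are known HIF targets, so cores in their promoters say nothing about this experiment.

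Set against each other, the median of the HIF targets was lower than that of the enzymes by -0.56, a description with no test. Level moved with this contrast, because 8 of 17 enzymes but 1 of 13 targets had a mean level of at least 11, where all genes differed little (median absolute difference 0.12, against 0.21 from 8 to 11). That single target, BNIP3, differed by -0.83, while the 8 enzymes had a median of -0.14. Between levels of 8 and 11 the median was -0.31 for 7 enzymes and -0.59 for 9 targets, a contrast of -0.28. Without probe sets whose names end in _x_at or _s_at, which Affymetrix uses where probes match several transcripts, the contrast shrank to -0.042. That setting left 7 enzymes with a median of -0.43 and 8 targets with a median of -0.47. The 10 enzymes dropped had a median of -0.074 with the values used above, and the 5 targets dropped, VEGFA and NDRG1 among them, of -0.72. A gap between enzymes and targets was therefore not settled in size by these arrays.

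**Figure D3:**
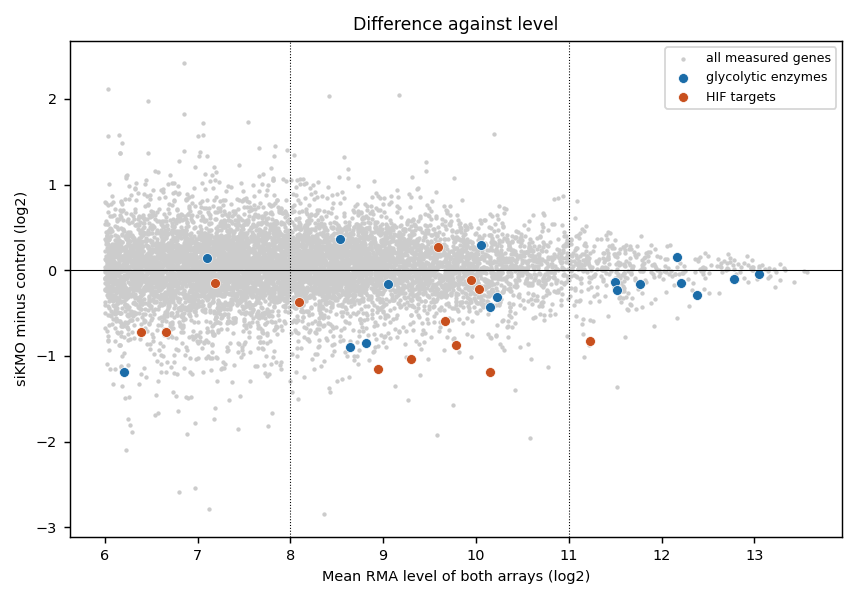
Difference of siKMO minus control (log2, y axis) against the mean level of both arrays (log2, x axis) for all 8997 measured genes (grey), the 17 enzymes (blue) and the 13 HIF targets (orange), with dotted lines at 8 and 11. The spread of all genes narrows to the right, where 8 enzymes and 1 target lie.

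Other genes of the same pathways were taken from lists of textbook genes. These lists were drawn up with earlier results of these data known, so they are no independent check of the members. Of 36 measured further HIF or hypoxia targets, 26 were lower, 4 by 2-fold, and 2 were higher by 2-fold, with a median of -0.23. The shares of all measured genes were 44.1% lower, 1.39% lower by 2-fold and 0.856% higher by 2-fold. DDIT4, which restrains mTORC1 under stress, stood at 11.57 in control and 9.61 in siKMO, a 3.88-fold lower level. TXNIP, an inhibitor of thioredoxin and glucose uptake, stood at 12.21 and 10.84, a 2.58-fold lower level. PLOD2, a collagen lysyl hydroxylase, stood at 11.34 and 10.22, a 2.18-fold lower level with its other probe set at -1.16.

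EFNA1, a ligand of Eph receptors named after its value was seen, was the remaining one, at 8.89 and 7.77. TMEM45A went the other way, from 7.11 in control to 8.56 in siKMO, a 2.74-fold higher level. IGFBP3, a binding protein of insulin-like growth factors that was named after its value was seen, was 2.17-fold higher (7.14 and 8.26). The measured further targets ran from -1.96 to 1.45. CXCR4, a chemokine receptor named after its value was seen, had a mean under the minimum, with 7.20 in control and 4.41 in siKMO, at least 2.30-fold lower.

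Other genes of glucose use were lower about as often as all measured genes. Of 31 measured genes of glycolysis, glycogen and pyruvate use, 14 were lower and 16 higher, 0 by 2-fold, with a median of 0.018. That is 45.2% lower, beside 44.1% of all measured genes, of which 1.39% were lower and 0.856% higher by 2-fold. TIGAR, a phosphatase that lowers fructose 2,6-bisphosphate, was 6.86 in control and 7.59 in siKMO, a difference of 0.73. FBP1, which runs the phosphofructokinase step backwards in glucose synthesis, differed by -0.72 (8.05 and 7.33). The ADP-dependent glucokinase ADPGK differed by 0.63 (8.47 and 9.10). The monocarboxylate transporter SLC16A7 was higher by at least 0.30, with 5.72 in control and 6.30 in siKMO.

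Of 17 further regulators of HIF, 9 were lower and 8 higher, 0 by 2-fold, with a median of -0.053. Among all measured genes 44.1% were lower, 1.39% lower by 2-fold and 0.856% higher by 2-fold. CITED2, which competes with HIF for the coactivator CREBBP and is a HIF target too, was 9.82 in control and 8.96 in siKMO, a difference of -0.86. CREBBP differed by 0.38 (7.91 and 8.29). RWDD3, which promotes sumoylation of HIF1A, differed by -0.48, and LIMD1, a scaffold of the EGLN and VHL complex, by -0.44 with probe sets up to -0.091.

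**Figure D4:**
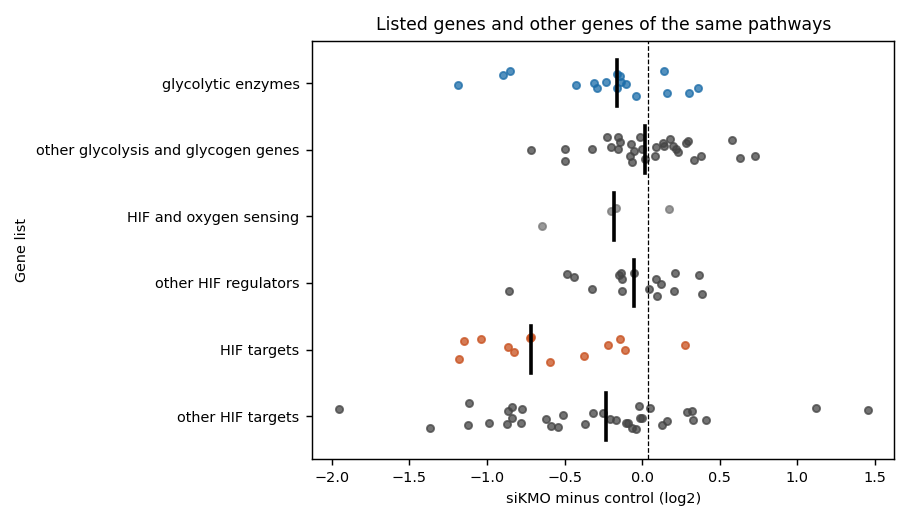
Difference of siKMO minus control (log2, x axis) of each measured gene in the enzyme, HIF and further pathway lists (points, with vertical scatter for visibility), with the median of each list as a black bar and the median of all measured genes (0.040) dashed. HIF targets have the lowest median (-0.72) and other glycolysis and glycogen genes lie around 0.

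Markers of the cell line were checked as well. VIM, a mesenchymal filament, stood at 12.90 and 12.96, and all 6 markers chosen for the line were measured, with differences from -0.30 to 0.16. ESR1 and PGR were under the minimum on both arrays, and ERBB2 stood at 7.44 and 7.37. Of 8 epithelial markers 6 were measured, with median levels of 10.51 in control and 9.57 in siKMO. CDH1, which this line is usually described as lacking, stood at 10.54 and 8.62, and CLDN7 and EPCAM differed by -1.11 and -0.90, and KRT19 by -0.41, while KRT8 and KRT18 differed by 0.17 and 0.15. ESRP1 and GRHL2, which mark epithelial cells, were under the minimum on both arrays. The 5 immune and endothelial markers with a probe set were all under the minimum. The 4 lower epithelial genes went the same way as most members between these arrays, and their part in the result was not tested.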

How the data were processed

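The authors deposited log2 levels made, per the labels, by robust multi-array averaging (RMA); Affymetrix Expression Console is the tool in the submitters' processing notes. RMA subtracts background, quantile normalizes the arrays and gives 1 level per probe set. Its version and the arrays that entered it: not given in the sources used here. A shift shared by all transcripts cannot be seen in such values, and they carry no detection call.

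Probe sets were named through the platform annotation, with symbols updated by gene identifier. Of 54675 probe sets, 41091 carried 1 gene, 1801 carried several and named none, and 11721 were not listed. The strongest probe set by the mean of both arrays stood for a gene, and genes with a mean of 6 or more were called measured. The 3 array control probe sets of GAPDH, counted among the 102 of the members, entered no gene's value. Differences are siKMO minus control in log2 units, and a fold is 2 to that power. A level under 6 was taken as 6 for a fold given as "at least", while counts and medians use the deposited values. With 1 array per group no test was run, no p-value exists; the precision is limited by having 2 arrays.

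Every member could be named. Of each further pathway list, the 4 measured genes with the largest absolute difference were named; cell type markers could be named, and any other gene is said in the text to have been named after its value was seen. The members and lists were chosen with earlier results of these data known. Promoter windows were taken from RefSeq (GRCh38.p14), and 37 of the 43 genes had one. Alternatives covered the gene's value, suffixed probe sets, the level minimum, the fold threshold, centring and the roles of members; the level range from 8 to 11 was added after seeing the data. Calculations used Python 3.11.15, pandas 2.3.3 and numpy 2.4.6. Calling of 2-fold differences was tried on simulated data with planted changes, while medians, contrasts and promoter counts were not.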

Additional observations from a re-analysis of the deposited data

How the results depend on the processing

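No paired analysis was possible because each group has 1 array. A median counted as moved where it shifted by over 1.5 times and over 0.1, and a count where it shifted by over 1.5 times. Under these limits 77 values over the group results and alternatives kept to their main value, 9 moved and 4 turned sign. Some of the 77 could not change. A minimum of 5 or none leaves the enzyme and HIF target medians as they were, since all these genes with a probe set were already measured. Without _x_at and _s_at probe sets, 19 members were lower and 2 lower by 2-fold, of 21 measured. In that setting the medians were -0.43 for enzymes, -0.47 for HIF targets, 0.14 for other glycolysis and glycogen genes and 0.063 for other HIF regulators, and HIF targets minus enzymes was -0.042. Fewer genes enter that setting, and the shares of all genes lower in it are not given here. Between levels of 8 and 11, chosen after seeing the data, the enzyme median was -0.31 and the contrast -0.28. A threshold of 1.5-fold gave 15 lower members. The median of other HIF regulators was 0.043 with a minimum of 5 and with no minimum, and that of other glycolysis and glycogen genes -0.022 after centring, so neither had a settled sign. By single probe sets the direction turned for EGLN1 (-0.11), ERO1A (-0.13), HILPDA (0.028) and P4HA2 (0.36). With levels under 6 taken as 6, 4 members were lower by 2-fold. Levels near 6 have no detection call.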

Other observations

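A pair of probe sets assigned to both SLC2A3 and its copy SLC2A14 was left out of the members. These stood at 7.59 in control and 6.66 in siKMO and at 8.01 and 6.56, differences of -0.93 and -1.45, beside -1.59 to -1.07 for the probe sets of SLC2A3 alone. Among the members, 18 genes had 2 or more measured probe sets. In 12 of these genes every measured probe set was lower, in 2 every one was higher, and in 4 the signs were mixed. The matching shares over all genes are not given here, so these counts describe the members only.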
